A study of Homo sapiens with 95 samples.

Results

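The heat shock proteins and chaperonins examined here were 40 genes chosen by symbol from a given list, and all 40 symbols were found among the 23895 symbols of the deposited count table. They comprised 11 genes classically induced by heat, 10 cytosolic chaperones and co-chaperones expressed without stress, 6 chaperones and cofactors of the endoplasmic reticulum, 3 mitochondrial chaperones, the 8 subunits of the cytosolic chaperonin TRiC, and the transcription factors HSF1 and HSF2. The genes were measured by 3′ digital gene expression, which counts 1 molecular barcode per captured mRNA molecule, in AALE cells, an immortalized human bronchial epithelial line. The 8 populations made from these cells were each grown to confluence in 24-well plates and exposed to a vehicle or to 1 of 3 tobacco-related chemicals.

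The populations labelled NRF2, FGFR1, NRG1 and PIK3CA overexpressed the named gene, and HCRED, carrying an empty vector, was their control. The populations labelled FAT1 and CDKN2A had been edited with Cas9 against the named gene, and GFP, which had received the same Cas9 and EGFP plasmid without a guide RNA, was their control. The exposures were DMSO alone, cigarette smoke condensate (CSC, 24 µg/ml), benzo[a]pyrene (BaP, 173 µM) and the nicotine-derived nitrosamine NNK (490 µM), all in DMSO. The sources used here do not say whether a population was a clone or a pool, and each population is a single line, so that p-values measure the spread between wells of a line. Of the 95 wells, 82 had replicate numbers of 1 digit and were compared, and 13 wells in 6 groups had numbers of 2 digits whose meaning the labels do not give and were kept aside. Each chemical had 2 plate rows of its own, and each population kept 3 plate columns and either the first or the second row of every chemical, so that a chemical and its rows, or a population and its block of wells, cannot be told apart. HCRED, GFP, FGFR1 and PIK3CA cells were in the first rows and NRF2, NRG1, FAT1 and CDKN2A cells in the second, so that FAT1 and CDKN2A cells never shared a row or a column with GFP cells.

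The 82 wells held between 692446 and 1895735 counts, with a median of 1293615, and the 40 genes together took between 1.01% and 1.89% of them. Of the 40 genes, 39 had a mean count above 1, as did 11356 symbols in all, and the exception was HSPB8, which had a count in 33 wells. The 6 targeted genes were shifted in the direction of their labels with no overlap between wells, from a log2 difference of 7.65 for NRG1 to a log2 difference of −0.89 for CDKN2A. All 10 bronchial epithelial markers were detected, with a summed level of 733 to 1696 CPM (counts-per-million of the well's total), against 0 to 15.8 CPM for 7 fibroblast markers, 4.20 to 37.2 CPM for 5 leukocyte markers, of which CD68 made up most, and 0 to 5.42 CPM for 4 endothelial markers. CD3E, TYROBP, VWF and CDH5 were at 0 in all 82 wells. One well, replicate 2 of the NRG1 population under NNK, stood apart from the other wells of its group, with a chi-square per degree of freedom of 11.3 and 11.8 against them where the other 74 pairs of wells within a group lay between 1.13 and 2.89. Counts of members that rest on that NRG1 well are given with and without it. The 2 highest of the 74 values, 2.76 and 2.89, were pairs with replicate 2 of the CDKN2A population under DMSO. The other 2 wells of that group gave 1.2 between them.

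Chaperones bind unfolded or partly folded proteins and keep them from aggregating while they fold. HSP70 proteins do this in cycles of ATP hydrolysis that J-domain proteins start and exchange factors end, HSP90 acts later on kinases and steroid receptors, and the ring-shaped TRiC and HSP60 complexes enclose whole substrates. In heat or oxidative stress HSF1 binds inverted repeats of nGAAn, called heat shock elements, and raises transcription of the inducible genes, whereas unfolded protein in the endoplasmic reticulum acts through ATF6, which binds the endoplasmic reticulum stress element, and through XBP1 and PERK. Airway epithelium meets oxidants and electrophiles of smoke directly, and its chaperones are among the genes studied as markers of that damage.

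The promoter windows below, which reach from 250 bases before to 50 bases after the annotated start, show how differently the members that lead the comparisons are laid out. HSPA1A and CHORDC1 are shown because they rose in CDKN2A cells and carry the heat shock element. HSPB1 is shown because it moved in both directions across comparisons, and SERP1 because it carries the endoplasmic reticulum stress element. The last stretch is shown because the windows of HSPD1 and HSPE1, which are read from opposite strands, overlap there. The sequences are those of RefSeq on GRCh38.p14, and capitals mark GAANNTTC or TTCNNGAA in the first 3 and, in SERP1, CCAAT and CCACG with 9 bases between them, read on either strand.
HSPA1A, chr6:31815293-31815592, strand +: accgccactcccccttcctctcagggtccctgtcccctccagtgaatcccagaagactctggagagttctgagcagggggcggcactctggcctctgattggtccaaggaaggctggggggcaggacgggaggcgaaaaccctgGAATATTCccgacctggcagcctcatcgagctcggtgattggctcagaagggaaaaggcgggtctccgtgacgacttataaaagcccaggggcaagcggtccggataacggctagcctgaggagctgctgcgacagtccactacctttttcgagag
CHORDC1, chr11:90223000-90223299, strand -: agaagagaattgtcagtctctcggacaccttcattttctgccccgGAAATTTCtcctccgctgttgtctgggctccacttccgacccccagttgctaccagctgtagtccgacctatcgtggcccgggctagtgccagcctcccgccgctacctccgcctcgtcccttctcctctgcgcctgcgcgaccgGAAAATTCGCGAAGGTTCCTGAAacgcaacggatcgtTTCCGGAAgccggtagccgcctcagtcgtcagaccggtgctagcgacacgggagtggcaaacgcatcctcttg
HSPB1, chr7:76302423-76302722, strand +: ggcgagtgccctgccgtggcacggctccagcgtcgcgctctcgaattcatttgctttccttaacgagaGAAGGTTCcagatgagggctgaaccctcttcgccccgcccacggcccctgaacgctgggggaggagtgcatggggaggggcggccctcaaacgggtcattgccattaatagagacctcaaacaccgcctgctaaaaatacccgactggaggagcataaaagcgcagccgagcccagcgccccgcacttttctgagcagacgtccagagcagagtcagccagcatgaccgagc
SERP1, chr3:150546447-150546746, strand -: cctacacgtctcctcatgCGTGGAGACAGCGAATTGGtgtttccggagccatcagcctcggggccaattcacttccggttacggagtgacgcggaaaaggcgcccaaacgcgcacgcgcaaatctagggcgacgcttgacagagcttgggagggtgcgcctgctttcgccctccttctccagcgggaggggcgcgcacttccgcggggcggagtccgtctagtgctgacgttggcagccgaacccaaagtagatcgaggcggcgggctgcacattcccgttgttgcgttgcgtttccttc
HSPD1 and HSPE1, chr2:197500225-197500428, strand +: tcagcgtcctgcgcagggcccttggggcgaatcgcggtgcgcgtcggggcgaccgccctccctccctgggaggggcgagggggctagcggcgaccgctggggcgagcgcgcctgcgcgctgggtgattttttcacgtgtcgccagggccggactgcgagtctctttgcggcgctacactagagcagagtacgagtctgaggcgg
In the HSPA1A window the single match ended 98 bases before the start, and in HSPB1 it ended 174 bases before it. In CHORDC1 6 matches, some of them overlapping, formed 3 blocks between 205 and 15 bases before the start. The match in SERP1 ended 213 bases before its start. The stretch of 204 bases shared by HSPD1 and HSPE1 held none of the 8-base heat shock matches, although HSPD1 had 3 in the rest of its windows. Counted over all 36 members with an entry in the promoter table, at least 1 pair of inverted heat shock units was present in 18, against 16.2% of all 27305 genes with an entry. By list, 8 of 10 heat-inducible, 5 of 9 constitutive cytosolic, 2 of 3 mitochondrial and 3 of 7 TRiC genes had a match, against 0 of 6 genes of the endoplasmic reticulum. Runs of 3 consecutive units, which contain the shorter motif, were found in 6 of 36 members and 0.608% of all genes. The endoplasmic reticulum stress element was found in HSP90B1 and SERP1 and in 0.0916% of all genes. The core of the antioxidant response element, TGACNNNGC, was present in 8 of 36 members and 16.1% of all genes, and the core of the xenobiotic response element, GCGTG, in 20 of 36 members and 40.6% of all genes. A match is a string of letters and not a shown binding site, and the windows were not tested against the expression values.

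Under DMSO, HSP90AA1 and HSP90AB1, the inducible and the constitutive cytosolic HSP90, HSPA8, the constitutive HSP70, and the mitochondrial pair HSPD1 (HSP60) and HSPE1 (HSP10) had means of 578 CPM or more in every population. The twin genes of inducible HSP70, HSPA1A and HSPA1B, had population means between 2.16 and 16.7 CPM, and because their transcripts are almost identical the split of reads between them is uncertain. Look-alike genes and pseudogenes of the members were counted at no more than 2.86 CPM in the mean of the 82 wells. Among the 8 populations, the mean of CDKN2A cells was the highest for 23 of the 39 members with a mean count above 1, the mean of FAT1 cells the lowest for 14 and that of GFP cells the lowest for 10. Over the 8 population means the closest pair was DNAJB11 and SERP1, with a Pearson r of 0.987, followed by HSPA1A and CCT4 with 0.959, DNAJB11 and DNAJC3 with 0.951 and HSPD1 and HSPE1 with 0.95. All points in these correlations come from the same 24 wells and the value of CDKN2A cells lies apart for several of these genes.

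**Figure D1:**
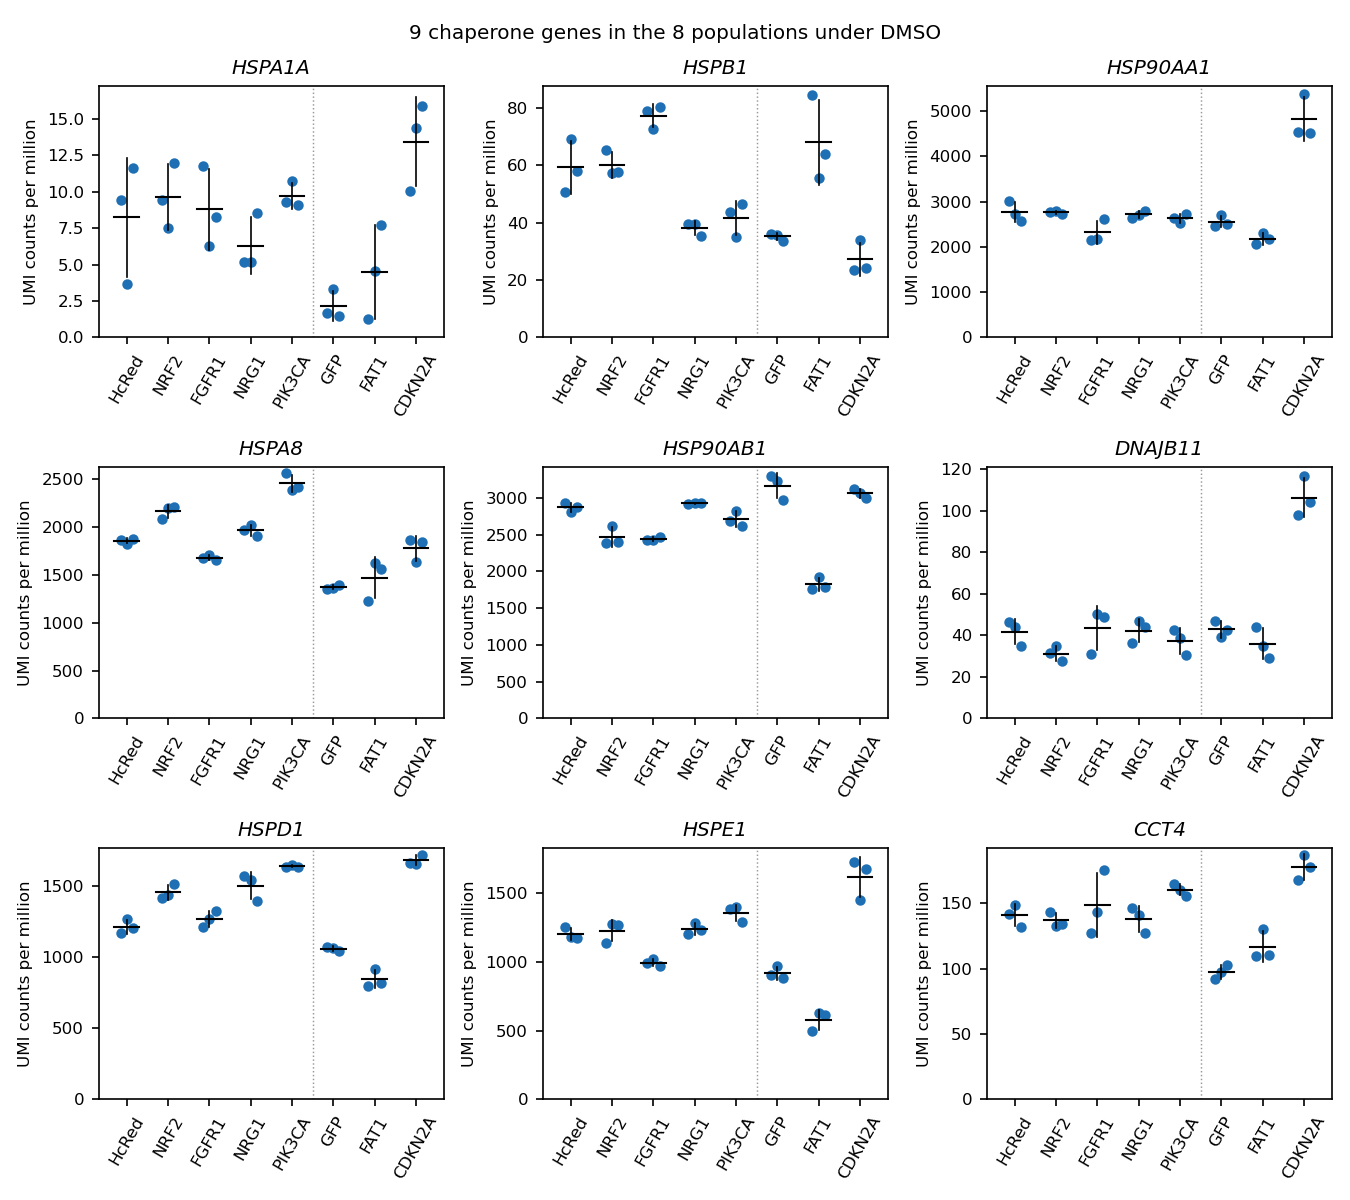
Levels of 9 chaperone genes in the 24 DMSO wells, 3 for each of 8 populations, in CPM on the vertical axis, with each well as a point, the mean as a horizontal bar and 1 SD as a vertical line. The CDKN2A wells of HSP90AA1 lie between 4524 and 5387, above all others, and the FAT1 wells of HSP90AB1 lie between 1753 and 1924, below all others.

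The comparison that moved most members was CDKN2A knockout against GFP cells under DMSO. Of the 39 members with a mean count above 1 in the 82 wells, 18 rose and 1 fell by limma-voom with Benjamini-Hochberg adjustment over all genes at 0.05, where 8.91% of the 11050 genes that met the same minimum rose and 9.61% fell. Over all 11575 genes tested the shares were 8.64% and 9.22%. HSPB8 entered the test only through its counts in CDKN2A wells and was left out of these counts. The median log2 difference was 0.37 over the 39 members and 0.02 over the 11050 genes. The members that rose came from 5 of the 6 lists: 4 of 10 heat-inducible, 5 of 10 constitutive cytosolic, 3 of 6 endoplasmic reticulum, 2 of 3 mitochondrial and 4 of 8 TRiC genes, and 0 of 2 heat shock factors. Each well was measured in bulk, so a change in every cell and a change in the share of cells carrying a transcript cannot be told apart. The CDKN2A locus encodes the cell cycle inhibitors p16 and p14ARF.

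HSPA1A (hg19, chr6:31783320-31785723, + strand), an inducible HSP70, was at 10.0, 14.4 and 15.9 CPM in the CDKN2A wells and at 1.68, 3.32 and 1.47 CPM in the GFP wells. The groups did not overlap, with means of 13.4 ± 3.04 and 2.16 ± 1.02 CPM (SD, n = 3 each), a log2 difference of 2.36 ± 0.51 (SE) and an adjusted p of 0.000225 by limma-voom. GFP cells had the lowest mean of HSPA1A among the populations and HCRED cells stood at 8.24 ± 4.10 CPM, so the size of this difference depends on the control. The twin HSPA1B was not called, with CDKN2A wells between 9.48 and 26.6 CPM under DMSO. Its CDKN2A wells lay above the GFP wells under CSC and overlapped them under BaP and NNK. The split of reads between the twins is uncertain. HSPB8, a small heat shock protein that works with BAG3, had 9, 6 and 3 counts in the CDKN2A wells and none in the GFP wells, so that it passed the minimum only where it was high. Against a floor of 3 counts over the GFP group, 0.798 CPM, its mean of 3.75 CPM was 4.7-fold higher. The floor covers counting error in the GFP wells only, and the counting error of the CDKN2A wells was not included. The promoter of HSPA1A printed above carries 1 pair of heat shock units.

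HSP90AA1 (hg19, chr14:102547079-102606036, − strand) was at 4548, 5387 and 4524 CPM in the CDKN2A wells and at 2462, 2706 and 2509 CPM in the GFP wells. All CDKN2A wells were above all other DMSO wells, and the log2 difference from GFP was 0.80 ± 0.08 with an adjusted p of 1.39e-15 by limma-voom. The constitutive HSP90AB1 was at 3062 ± 60.1 CPM in CDKN2A and 3166 ± 173 CPM in GFP cells (SD, n = 3 each) and was not called. CHORDC1, an HSP90 co-chaperone whose promoter holds 3 blocks of heat shock units, was at 117, 104 and 117 CPM against 57.9, 60.6 and 58.6 CPM, a log2 difference of 0.81 ± 0.16. STIP1, which passes substrates from HSP70 to HSP90, was at 94.8, 110 and 104 CPM against 52.9, 44.9 and 52.8 CPM, a log2 difference of 0.92 ± 0.16. In neither gene did the groups overlap.

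In the endoplasmic reticulum, DNAJB11, a J-domain partner of the HSP70 protein BiP, was at 98.2, 117 and 104 CPM in CDKN2A and at 47.0, 39.0 and 42.5 CPM in GFP cells, with a log2 difference of 1.19 ± 0.17 and an adjusted p of 8.34e-09 by limma-voom. SERP1, which stabilizes new membrane proteins at the translocon, was at 34.6, 67.0 and 31.8 CPM against 17.6, 17.4 and 19.1 CPM, and its log2 difference was 1.08 ± 0.23. HSP90B1, the HSP90 of this compartment, was 303 against 207 CPM with a log2 difference of 0.43 ± 0.12. The groups did not overlap for DNAJB11 and SERP1. From the list of other endoplasmic reticulum chaperones and unfolded protein response genes, 4 of 23 tested rose and 0 fell, among them HSPA5, which encodes BiP, with a log2 difference of 0.76 and the disulfide isomerase PDIA6 with 1.36.

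The mitochondrial partners rose together. HSPD1 (hg19, chr2:198351308-198381461, − strand) was at 1664, 1654 and 1719 CPM in CDKN2A wells and 1073, 1060 and 1041 CPM in GFP wells, a log2 difference of 0.56 ± 0.09. HSPE1 (hg19, chr2:198364864-198368173, + strand) was at 1724, 1448 and 1674 CPM against 900, 969 and 880 CPM, a log2 difference of 0.71 ± 0.10. Neither gene had overlapping wells, and the adjusted p was 6.62e-07 for HSPD1 and 3.59e-09 for HSPE1 by limma-voom. Of the TRiC subunits TCP1, CCT4, CCT6A and CCT7 rose, with log2 differences of 0.53, 0.75, 0.53 and 0.67, and the only member that fell was HSPA14, a ribosome-associated HSP70, with −0.63. These subunits and HSPA14 were singled out after their values were seen, as were the other members named below that are outside the naming rule. The lists of other cytosolic chaperones and prefoldins moved otherwise, with 3 of 36 tested genes higher and 9 lower.

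The direction of the CDKN2A calls held under the other exposures for most members. Of the 18 members higher under DMSO, the CDKN2A wells lay above all GFP wells for 17 under CSC, 18 under BaP and 15 under NNK, where the same was true of 74.5%, 81.6% and 73% of all 985 genes that met the same minimum and were higher under DMSO. Under BaP there were 2 CDKN2A wells. The CSC wells of CDKN2A and 2 of the 3 NNK wells have 2-digit replicate numbers. The exceptions were HSPA4 under CSC and HSPA4, AHSA1 and CCT6A under NNK. HSP90AA1 stood at 3408 to 3553 CPM in CDKN2A and 2209 to 2785 CPM in GFP cells under NNK, and HSPA1A at 9.42 to 11.6 CPM and 3.35 to 6.52 CPM. The NNK wells of HSP90AA1 in CDKN2A cells lay below its DMSO wells, which ranged from 4524 to 5387 CPM, a difference that was not tested.

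**Figure D2:**
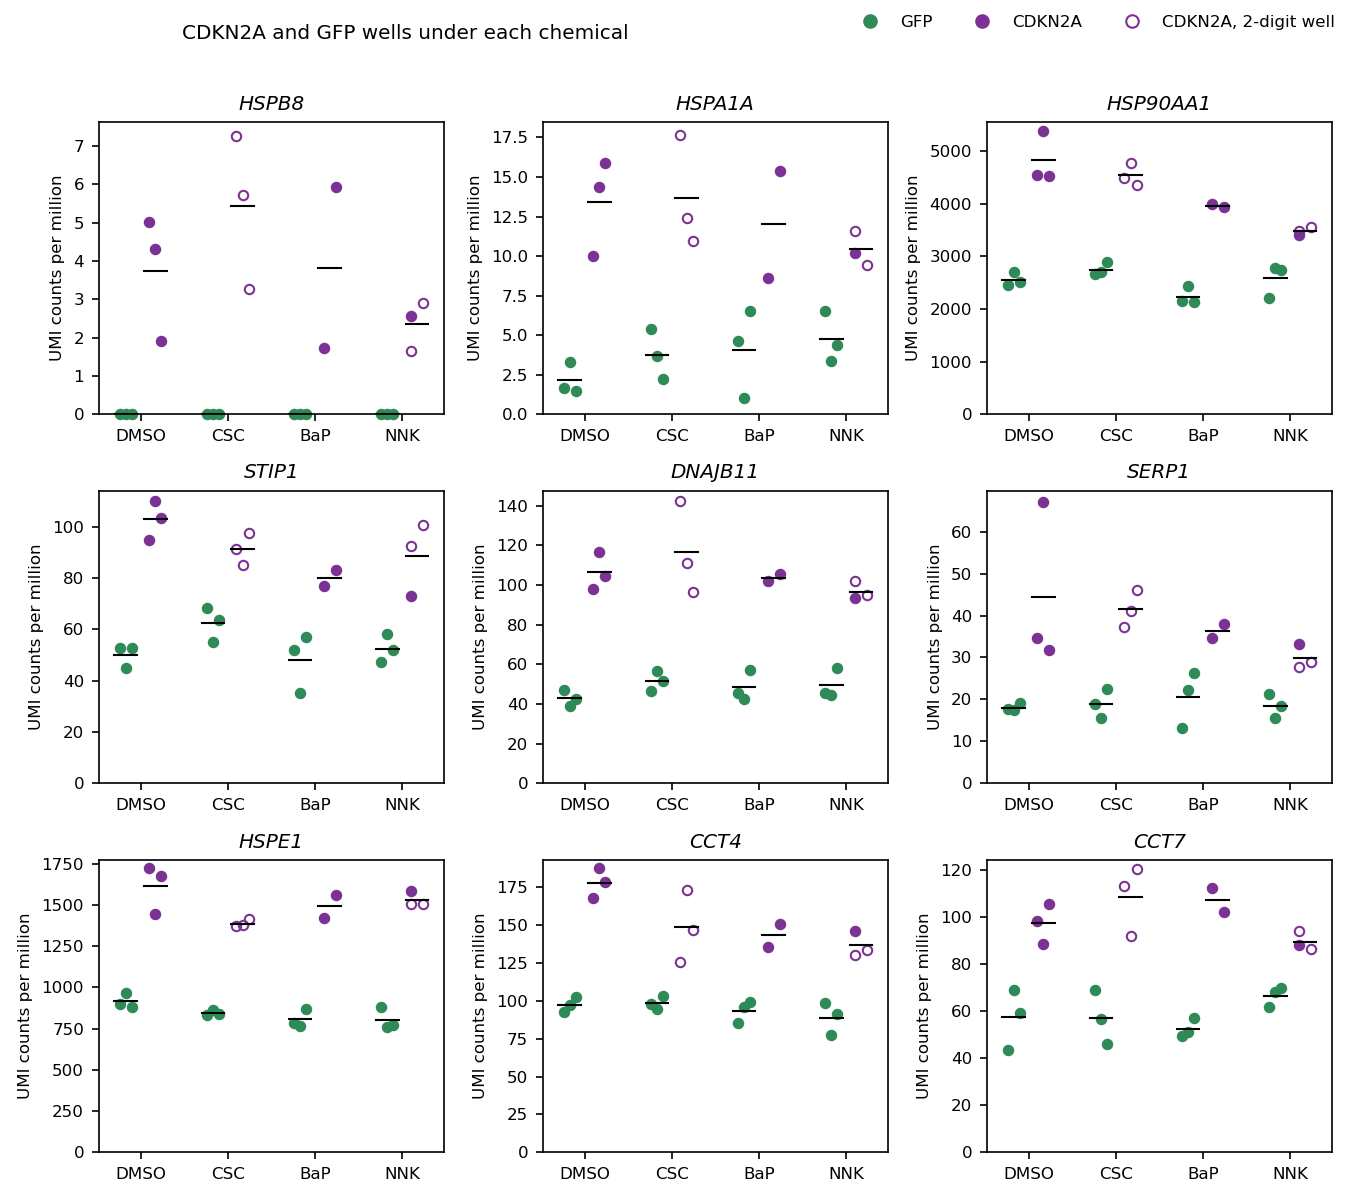
Levels of 9 chaperone genes in GFP and CDKN2A cells under the 4 exposures, in CPM on the vertical axis, with 1 point per well, bars for the mean of all wells shown, and open circles for CDKN2A wells with 2-digit replicate numbers. The CDKN2A wells of DNAJB11 lie between 93.4 and 142 and the GFP wells between 39.0 and 58.3 over all exposures.

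Against HCRED as the control, 10 members were higher in CDKN2A cells and 2 lower, where 6.49% of all genes were higher and 7.54% lower. Against both controls, 8 members were higher, namely HSP90AA1, CHORDC1, BAG2, DNAJB11, SERP1, HSPD1, HSPE1 and TCP1, and HSPA14 was lower against both. The share of all genes called against both controls is not given here, so these members cannot be set against it. The other members that rose, HSPA1A, DNAJB1, HSPA4, HSPA8, STIP1, AHSA1, HSP90B1, CCT4, CCT6A and CCT7, were called against GFP alone. For HSPA1A, HSPA4, HSPA8, STIP1, CCT4, CCT6A and CCT7, GFP cells had the lowest DMSO mean of all populations. HSPB1, the small heat shock protein HSP27, was at 23.4, 33.8 and 24.2 CPM in the CDKN2A wells and 59.2 ± 9.37 CPM in HCRED wells, and fell by 1.21 on the log2 scale against HCRED. The calls of DNAJB1 and HSPA8 against GFP, with adjusted p of 0.0381 and 0.0282 by limma-voom, were kept in 2 and 1 of the 6 fits that each left out 1 well. HSPA8 was −0.13 against HCRED, the opposite sign of 0.26 against GFP. Library totals alone gave 22 members higher, HSPB8 included, and 0 lower, against 19 and 1 with TMM scaling factors, so HSPA14 was no longer called. The median of all genes moved from 0.03 to 0.13, and the scaling factors of the groups differed by 0.11 on the log2 scale. The share of all genes called with library totals is not given here. Among the marker lists, 1 of 10 epithelial markers was higher and 2 lower between CDKN2A and GFP cells, and their part in the result was not tested.

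In FAT1 knockout cells fewer members rose than fell against GFP cells, with 3 members higher and 7 lower of 39 tested, against 6.39% and 7.7% of all genes. HSP90AB1 (hg19, chr6:44213903-44221625, + strand) was at 1753, 1924 and 1793 CPM in the FAT1 wells and 3299, 3227 and 2970 CPM in the GFP wells. No FAT1 well came near a GFP well, and the log2 difference was −0.73 ± 0.04 with an adjusted p of 1.51e-30 by limma-voom. HSPE1 was at 495, 627 and 612 CPM against 900, 969 and 880 CPM, and fell by 0.62 on the log2 scale with an SE of 0.06. HSPD1 was at 795, 914 and 819 CPM against 1073, 1060 and 1041 CPM, a log2 difference of −0.27 ± 0.06. FAT1 encodes a protocadherin, a large cell adhesion protein.

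HSPB1 (hg19, chr7:75931990-75933612, + strand) went the other way in FAT1 cells, at 84.4, 55.5 and 64.0 CPM against 36.1, 35.7 and 33.7 CPM. The wells did not overlap and the log2 difference was 0.98 ± 0.17 with an adjusted p of 2.27e-06 by limma-voom. The J-domain protein DNAJB4 was higher by 0.60 ± 0.18, HSPA14 was −0.70 ± 0.19 and the J-domain protein DNAJA2 −0.58 ± 0.17, and HSP90AA1 was lower by a smaller margin, at 2177 against 2559 CPM. The TRiC subunits CCT5 and CCT8 were called in opposite directions, at −0.38 and 0.17. The calls of HSP90AA1 and DNAJA2 were each kept in 4 of 6 fits that left out 1 well and were lost with DESeq2. Those of HSPA14 and DNAJB4 were each kept in 5 of 6 and were also lost with DESeq2. Under CSC, BaP and NNK the FAT1 wells all stayed beyond the GFP wells on the same side for 7 of the 10 called members, HSPB1, HSP90AB1, HSPE1, HSPD1, DNAJB4, HSPA14 and CCT5, where this held for 50.5% of all genes called. In DNAJA2, HSP90AA1 and CCT8 the wells overlapped under at least 1 of these exposures. Under NNK, for example, HSP90AB1 was at 1503 to 1534 CPM in FAT1 and 2779 to 3299 CPM in GFP cells, and HSPB1 at 52.3 to 62.7 CPM and 25.7 to 33.4 CPM. Against HCRED, where 6.82% of all genes were higher and 6.47% lower, DNAJB4 and CCT8 were again higher. HSP90AA1, HSPA14, HSP90AB1, HSPD1, HSPE1 and CCT5 were again lower. The share of all genes called against both controls is not given here. Library totals alone gave 2 members higher and 9 lower against GFP. HSPB1 and DNAJA2 were called only against GFP, and DNAJA2 was −0.08 against HCRED. Of 10 epithelial markers, 7 were also called between FAT1 and GFP cells, 3 higher and 4 lower, and their part in these differences was not tested.

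The 2 controls themselves differed. In GFP cells 3 members were higher and 9 lower than in HCRED cells, against 5.94% and 4.86% of all genes. HSPE1 was at 916 ± 46.4 CPM in GFP and 1200 ± 45.7 CPM in HCRED cells (SD, n = 3 each), a log2 difference of −0.34 ± 0.04 with an adjusted p of 1.22e-07 by limma-voom. HSPA8 was at 1372 against 1856 CPM, a log2 difference of −0.38, and HSPB1 at 35.2 against 59.2 CPM, a log2 difference of −0.70. HSPA4 and STIP1 were lower by log2 values of −0.53 and −0.49, CCT4 by −0.48, and HSPD1 by −0.15. Of the 6 fits that left out 1 well, HSPA4 and STIP1 kept their calls in 4 and HSPD1 in 3. HSP90AB1, DNAJA2 and CCT3 were the 3 higher members, with 0.19, 0.48 and 0.20, and the call of DNAJA2 was lost in each of the 6 fits that left out 1 well. HSPA1A, at 2.16 ± 1.02 CPM in GFP and 8.24 ± 4.10 CPM in HCRED cells, was not called, with a log2 difference of −1.62, and library totals alone made it a call, with 2 members then higher and 12 lower. Of 10 epithelial markers, 4 were lower in GFP cells, and their part was not tested. The vectors, the editing step and the plate columns, though not the plate row, differ together between these controls and cannot be told apart.

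The 4 overexpressing populations were compared with HCRED under DMSO. In NRF2 cells, which overexpress the transcription factor of the antioxidant response, 2 members rose and 2 fell, against 3.39% and 1.52% of all genes. HSPA8 was at 2089, 2200 and 2214 CPM against 1871, 1826 and 1873 CPM, with a log2 difference of 0.32 ± 0.03. HSPD1 was at 1414, 1439 and 1512 CPM against 1167, 1265 and 1207 CPM, with a log2 difference of 0.35 ± 0.04. BAG3, an HSP70 exchange factor, was at 10.4 against 22.2 CPM and fell by 1.00 with an SE of 0.27, a call kept in 3 of 6 fits that left out 1 well. HSP90AB1 was −0.12 ± 0.03 with an adjusted p of 0.00666 by limma-voom, also kept in 3 of 6. None of the 10 heat-inducible members tested was called higher. Of 10 epithelial markers, 4 were called in NRF2 cells, 2 higher and 2 lower, and their part was not tested.

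In NRG1 cells, which overexpress an ERBB receptor ligand, 6 members were higher and 1 lower, against 2.08% and 0.998% of all genes. HSPD1 was at 1571, 1541 and 1395 CPM, above all 3 HCRED wells, with a log2 difference of 0.38 ± 0.04. The TRiC subunits CCT3, CCT5 and CCT8 were higher by 0.28, 0.26 and 0.21, HSPA8 by 0.16 and HSP90AB1 by 0.11, whereas HSPB1 was −0.56 ± 0.15, a call kept in 3 of 6 fits that left out 1 well. Library totals alone left 3 higher and 1 lower. Among the 10 epithelial markers, 5 were lower in NRG1 cells, KRT14, KRT17 and KRT5 by −1.38, −1.19 and −0.93. The fibroblast marker DCN was higher by 2.01, and the part of these markers was not tested.

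In PIK3CA cells, which overexpress the catalytic subunit of PI3 kinase, 5 members were higher and 1 lower, against 3.36% and 2.05% of all genes. HSPA8 was at 2563, 2391 and 2420 CPM against 1871, 1826 and 1873 CPM in HCRED cells, and HSPD1 was at 1634, 1650 and 1633 CPM against 1167, 1265 and 1207 CPM. Neither gene overlapped between the groups, and the log2 differences were 0.47 ± 0.04 for HSPA8 and 0.49 ± 0.04 for HSPD1, with adjusted p of 7.28e-17 and 5.76e-15 by limma-voom. HSPE1 was higher by 0.24, the HSP90 co-chaperone PTGES3 by 0.39 and CCT2 by 0.28. HSPA1B was the lower member, at 6.93 against 15.5 CPM with a log2 difference of −1.19 ± 0.34, a call kept in 4 of 6 fits that left out 1 well. Its twin HSPA1A was not called. Library totals alone gave 5 higher and 2 lower. Among the 10 epithelial markers, 7 were called in PIK3CA cells, 2 higher and 5 lower.

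In FGFR1 cells 0 of 40 members were called by limma-voom, with 9 at an unadjusted p below 0.05, and edgeR called 0 and DESeq2 called 1, where 0.501% of all genes were higher and 0.413% lower. Without replicate 3 of the FGFR1 population, 5 members passed. The comparisons of GFP, NRF2, NRG1, PIK3CA and FGFR1 cells share the 3 HCRED wells, so a deviation of those wells enters each of them. Values of HSPD1 relative to HCRED were 0.35 in NRF2, 0.38 in NRG1, 0.49 in PIK3CA and −0.15 in GFP cells. The transcription factors HSF1 and HSF2 were called in none of the comparisons, although HSF1, counted at a low level, ranged up to a log2 difference of 1.12 in NRG1 cells.

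**Figure D3:**
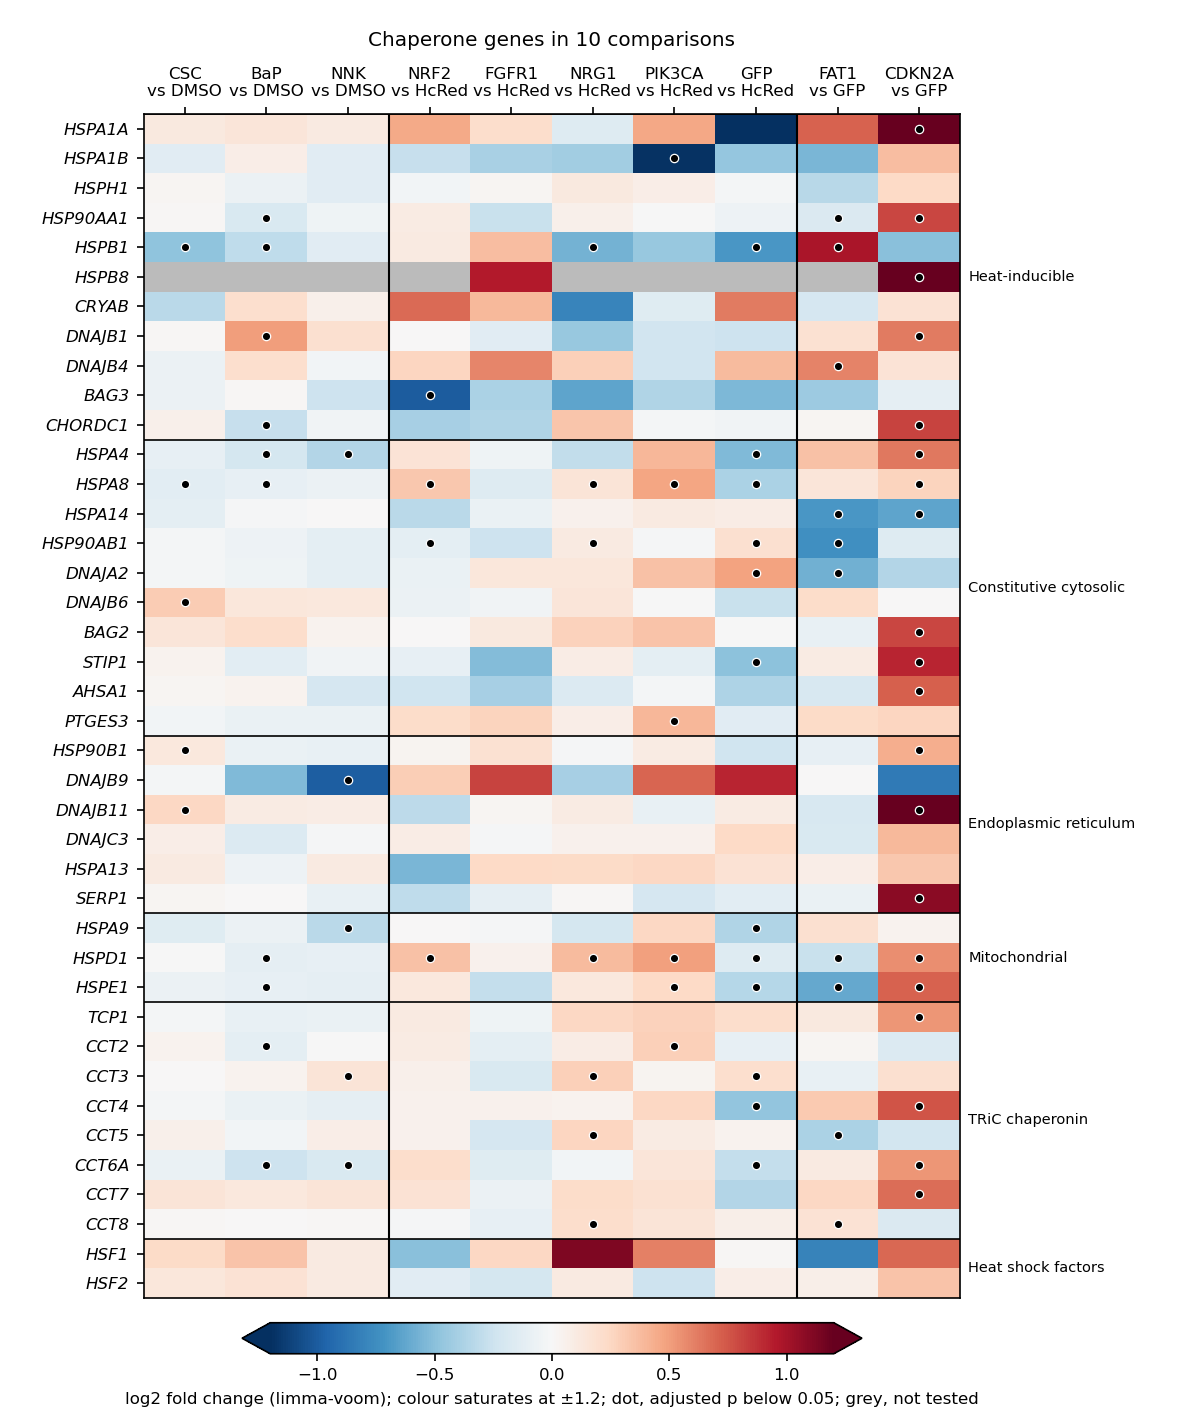
Log2 differences of the 40 members, in rows grouped by list, in 10 comparisons, in columns, on a colour scale from lower (blue) to higher (red) that saturates at 1.2 in both directions. Black dots mark members called at an adjusted p below 0.05 and grey cells were not tested. The CDKN2A column holds 20 dots, HSPB8 among them, and the CSC, BaP and NNK columns hold 5, 10 and 5.

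The chemicals were compared with DMSO over the populations that had 3 wells under both, with population as a term. CSC moved 5 of 39 members, 3 higher and 2 lower, in 5 populations, where 2.95% of all genes rose and 2.86% fell. The classical inducible genes HSPA1A, HSPA1B, HSPH1 and DNAJB1 were not among them. HSPB1 fell, with means of 38.2 CPM under CSC and 52.8 CPM under DMSO, a log2 change of −0.48 ± 0.08 and an adjusted p of 2.33e-06 by limma-voom. Its mean was lower in 5 of 5 populations, from −0.34 in GFP to −0.58 in FAT1 cells, and the wells did not overlap in PIK3CA, GFP and FAT1 cells. DNAJB6, a J-domain protein that keeps aggregation-prone proteins soluble, rose from 69.6 to 86.1 CPM, a log2 change of 0.30 ± 0.06, with wells apart in NRF2, PIK3CA and GFP cells. In the endoplasmic reticulum DNAJB11 rose by 0.25 ± 0.07 and HSP90B1 by 0.13 ± 0.04, kept in 27 and 12 of 30 fits that each left out 1 well. Both calls were lost in a single model of every group and with the 2-digit wells summed and added. HSPA8 was 1704 against 1865 CPM, a log2 change of −0.13 ± 0.03, a call lost with DESeq2 and without the low-count filter.

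Under CSC other stress genes moved more than the chaperones. From the list of other stress markers 6 of 9 tested rose and 0 fell, with FOS at 1.52, JUN at 0.84 and PPP1R15A, the phosphatase subunit induced in the integrated stress response, at 0.75. In the lists of other chaperones, 0 of 37 cytosolic genes rose and 1 fell, 0 of 12 mitochondrial genes were called and 1 of 23 in the endoplasmic reticulum rose. KRT14, KRT19 and KRT5 fell by 0.87, 0.58 and 0.46 under CSC, and CD68, which epithelial cells also carry in lysosomes, rose by 0.88. The part of these markers in the chaperone values was not tested.

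BaP lowered 9 members and raised 1 of 39, in 5 populations, where 5.04% of all genes rose and 4.12% fell. HSP90AA1 was at 2206 CPM under BaP and 2569 CPM under DMSO, a log2 change of −0.18 ± 0.02 with an adjusted p of 3.42e-11 by limma-voom, and every BaP well was below every DMSO well in 5 of 5 populations, from −0.10 in NRF2 to −0.31 in PIK3CA cells. HSPB1 fell by 0.30, CCT6A by 0.24, CHORDC1 by 0.27 and HSPA4, an exchange factor of HSP70, by 0.22, the last kept in 26 of 30 fits that left out 1 well. The highly counted HSPA8, HSPD1, HSPE1 and CCT2 fell by 0.09, 0.11, 0.10 and 0.11. BaP is a polycyclic hydrocarbon that binds the aryl hydrocarbon receptor, which itself waits in the cytosol in a complex with HSP90.

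DNAJB1, the J-domain protein most typical of the heat response, was the member that rose under BaP, from 21.01 to 29.3 CPM, a log2 change of 0.50 ± 0.11 with an adjusted p of 0.000391 by limma-voom. The populations were not alike in their values. BaP wells lay above the DMSO wells in NRG1, PIK3CA and FAT1 cells, with 0.51, 0.97 and 0.73, and overlapped them in NRF2 and GFP cells, with −0.10 and 0.15. The difference between populations did not pass the adjustment over all genes, with an adjusted p of 0.487. Library totals alone gave 1 member higher and 13 lower under BaP. Of 9 other stress markers, 6 rose, with FOS at 1.49, the autophagy receptor SQSTM1 at 1.01 and JUN at 0.79, and 0 fell. Of the other chaperones 2 of 36 cytosolic genes rose and 3 fell, 0 of 12 mitochondrial genes were called by limma-voom, 2 of them with an unadjusted p below 0.05, and 2 of 23 in the endoplasmic reticulum rose and 2 fell. KRT14, KRT5, KRT19 and KRT6A fell under BaP by 0.95, 0.33, 0.28 and 0.23 and CD68 rose by 0.43, and their part in the result was not tested.

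**Figure D4:**
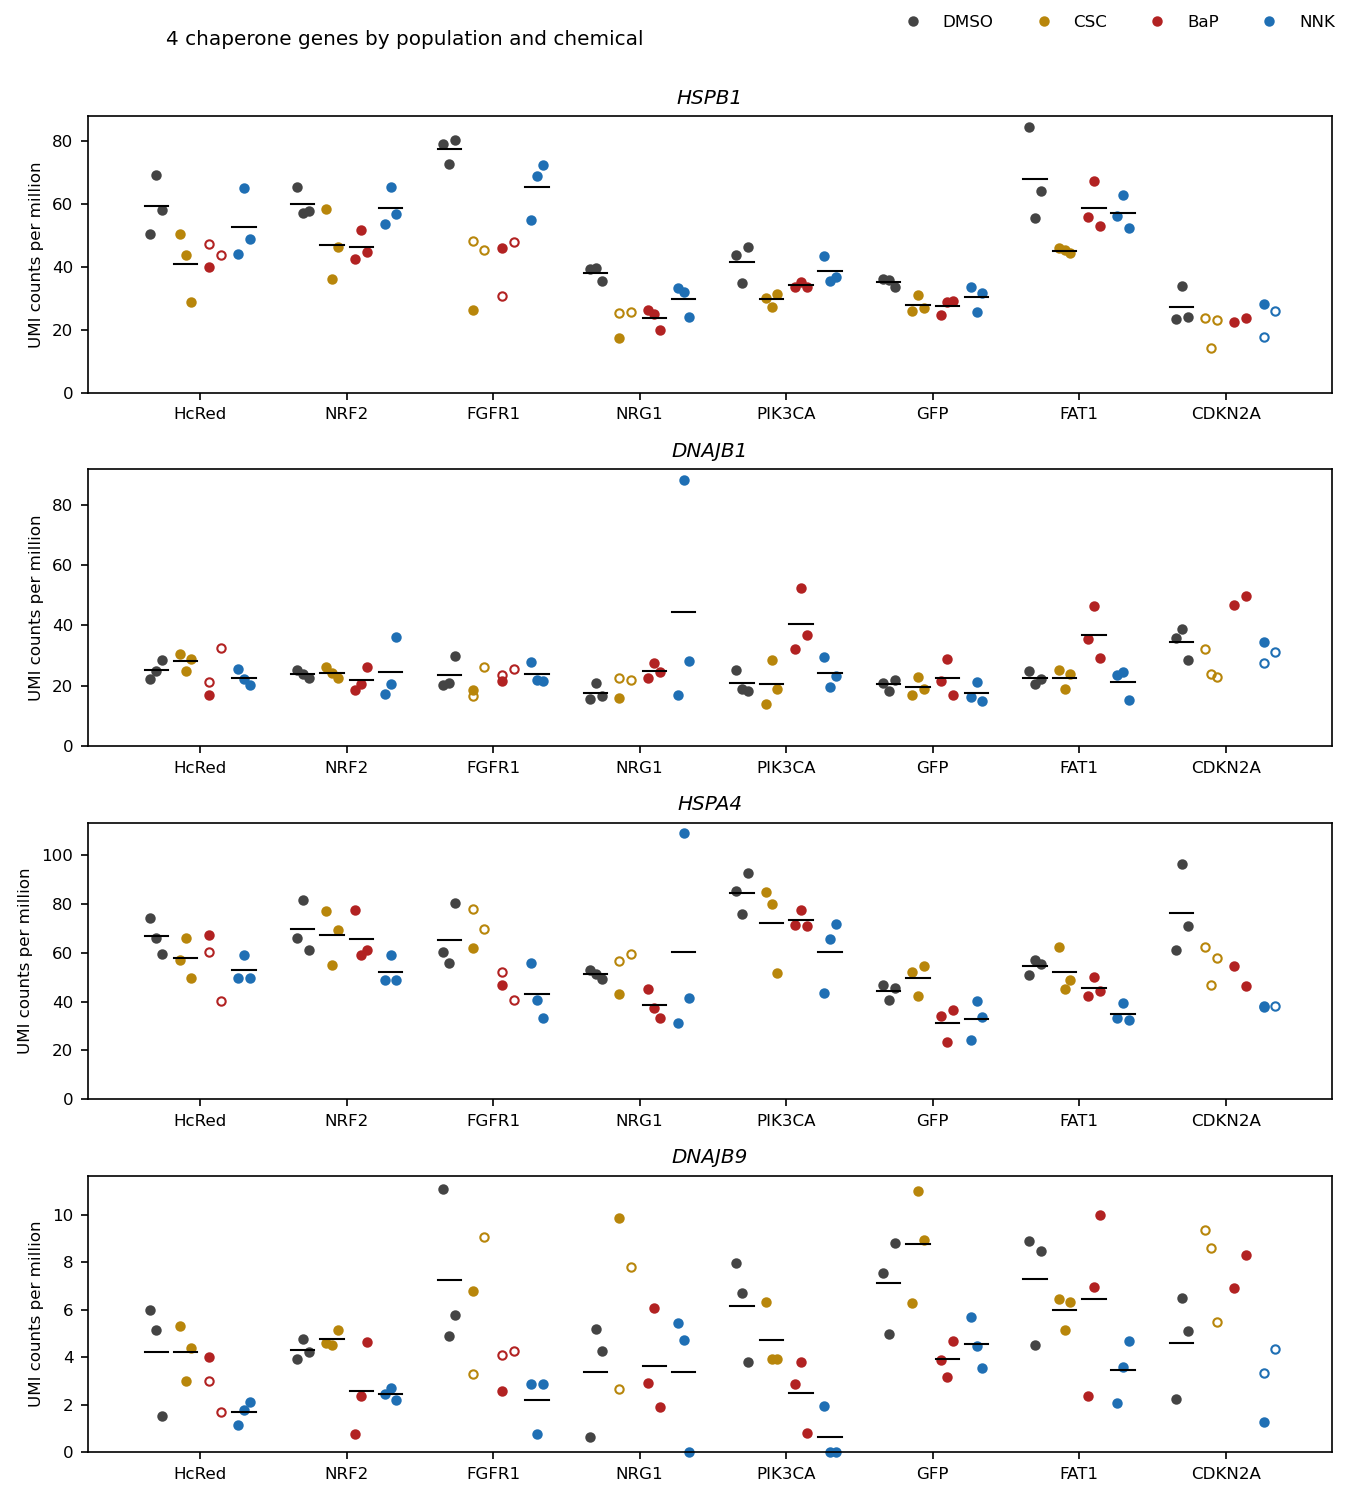
Levels of HSPB1, DNAJB1, HSPA4 and DNAJB9 in CPM on the vertical axis, by population and exposure, with 1 point per well, a bar at the mean where a group has 3 wells with 1-digit numbers, and open circles for wells with 2-digit numbers. The DNAJB1 panel shows the NRG1 well under NNK at 88.1, and the HSPB1 panel shows CSC wells of FAT1 cells between 44.3 and 45.9, below the DMSO wells at 55.5 to 84.4.

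NNK lowered 4 members and raised 1 of 39, in 7 populations, where 3.07% of all genes rose and 4.15% fell. HSPA4 was at 48.2 CPM under NNK and 62.4 CPM under DMSO, a log2 change of −0.35 ± 0.07 with an adjusted p of 0.000476 by limma-voom, and its NNK wells lay below the DMSO wells in 6 of 7 populations. HSPA9, the mitochondrial HSP70, was at 91.3 against 117 CPM, a log2 change of −0.32 ± 0.06, with wells apart in HCRED, PIK3CA, GFP and FAT1 cells. DNAJB9, an endoplasmic reticulum J-domain protein and a target of XBP1, was at 2.63 against 5.68 CPM, a log2 change of −0.99 ± 0.24, and its 3 PIK3CA wells under NNK were at 0, 0 and 1.97 CPM. CCT6A fell by 0.19 ± 0.05 and CCT3 rose by 0.15 ± 0.05, the latter kept in 29 of 42 fits that left out 1 well. No heat-inducible member was called among the 10 tested, and 0 of these 10 had an unadjusted p below 0.05. Library totals alone gave 1 member higher and 10 lower.

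The fitted log2 change of HSPA9 under NNK was negative in 7 of 7 populations. Its raw mean in NRG1 cells was 118 CPM under NNK, against 104 CPM under DMSO. HSPA4 wells overlapped the DMSO wells in NRG1 cells alone, at 31.2, 109 and 41.3 CPM under NNK, through the well that stood apart. That well was the highest of all 82 wells for 10 of 39 members, 25.6%, against 23.6% of all genes, and it had the highest HSPA1A, HSPA1B, HSPH1, DNAJB1, HSPA4, HSPA14, PTGES3, HSP90B1, HSPA9 and CCT4. Its values were 20.3 CPM for HSPA1A, 51.5 CPM for HSPA1B, 175 CPM for HSPH1 and 88.1 CPM for DNAJB1, while the other wells of the group were at 6.78 and 7.44, 12.9 and 8.26, 59.0 and 60.3, and 16.9 and 28.1 CPM. HSPA8 was 1522 CPM there and 1837 and 1828 CPM in the others. Its total of 1474903 counts was within the range of the others, 1210147 to 1474996.

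Without that well NNK moved 12 members, 4 higher and 8 lower, where 10.2% of all genes rose and 9.74% fell. The TRiC subunits CCT3, CCT5 and CCT7 and the J-domain protein DNAJB6 were then higher, and CCT4, CCT6A, DNAJB9, HSP90AB1, HSP90B1, HSPA4, HSPA9 and HSPH1 were lower. The 5 members called with all wells were then at −0.41 for HSPA4, −0.36 for HSPA9, −1.05 for DNAJB9, −0.19 for CCT6A and 0.20 for CCT3. With all wells kept, FOS, from the list of other stress markers, was higher under NNK by 1.96, and without that well by 1.92. In the same comparison, of the other chaperones 0 of 37 cytosolic genes rose and 4 fell, BAG4 by 0.63, 1 of 12 mitochondrial genes rose, and 1 of 23 in the endoplasmic reticulum rose and 1 fell. Without that well 4 of 37 cytosolic genes rose and 7 fell, 1 of 12 mitochondrial genes rose and 3 fell, and 2 of 23 in the endoplasmic reticulum rose and 4 fell. Among the 10 epithelial markers, 5 were called under NNK with and without that well, 2 higher and 3 lower, and their part was not tested.

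Compared directly over shared populations, CSC and BaP differed in 6 members, with 4 higher and 2 lower under CSC, against 1.58% and 3% of all genes. HSP90AA1 was 2564 CPM under CSC and 2159 CPM under BaP, a log2 difference of 0.19 ± 0.02, HSP90B1 was higher under CSC by 0.22 ± 0.04, and DNAJB1 was −0.53 ± 0.12. CSC and NNK differed in 7 members, 4 higher and 3 lower under CSC, against 4.92% and 7.35% of all genes, with HSPB1 at −0.43 ± 0.08, HSP90B1 at 0.24 ± 0.04, HSPA9 at 0.26 ± 0.05 and DNAJB9 at 0.97 ± 0.23. The split depended on the scaling, since library totals alone gave 10 higher and 1 lower for CSC against BaP and 15 higher and 2 lower for CSC against NNK. Between BaP and NNK limma-voom called 0 of 39 members, with 6 at an unadjusted p below 0.05, and edgeR called 0 and DESeq2 called 2, where 0.427% of all genes were higher under BaP and 0.569% lower. Without the well that stood apart 2 members were higher and 6 lower under BaP, against 1.19% and 3.92% of all genes. The doses of the 3 chemicals differ and each was tested at 1 dose.

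Whether populations responded unequally was tested as an interaction for each chemical. None of the 39 members passed limma-voom's adjusted threshold for CSC, BaP or NNK, with 3, 3 and 1 at an unadjusted p below 0.05 and 0 calls by edgeR and by DESeq2 in each, where 0.106%, 0.106% and 0.0176% of all genes passed. The smallest adjusted p among the members was 0.754 for CSC, 0.473 for BaP, in HSP90AA1, and 0.795 for NNK.

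The 13 wells with 2-digit numbers allowed a look at called members in samples not used for the calls. Such wells of a group may be separate cultures or repeat libraries, which the labels do not say, so they may not be independent. For each group the count is of members whose wells all lay beyond the DMSO wells of the same population in the called direction. Under CSC these were 1 of 5 in FGFR1, 1 of 5 in CDKN2A and 3 of 5 in NRG1 cells, against 49.8%, 41.6% and 61.6% of all genes called under CSC. Under BaP they were 7 of 10 in HCRED and 7 of 10 in FGFR1 cells, against 49.4% and 53.8%, and HSP90AA1, HSPB1, HSPA8, CHORDC1, CCT2 and CCT6A were among the 7 in both. DNAJB1, the member that rose under BaP, overlapped the DMSO wells in both, at 21.2 to 32.6 against 22.2 to 28.7 CPM in HCRED and 23.5 to 25.6 against 20.1 to 29.8 CPM in FGFR1 cells. Under NNK they were 4 of 5 in CDKN2A cells, against 65.1%, namely HSPA4, HSPA9, CCT3 and CCT6A. One member, HSPA8 in FGFR1 cells under CSC, lay beyond the DMSO wells in the opposite direction.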

How the data were processed

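Per the labels and the study's methods, the authors captured 3′ ends of polyadenylated RNA in 96-well plates (SCRB-seq), aligned reads to RefSeq hg19 transcripts with BWA 0.7.10 and deposited counts of molecular identifiers, each counted once per gene and well. Counts at 3′ ends are not scaled by gene length. The deposited counts are whole numbers with no normalization, and the authors' comparisons were not used.

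Members and lists were chosen with earlier results of these data known. From the counts, CPM were computed over library totals, and log2 differences by limma-voom (limma 3.58.1, edgeR 4.0.16 TMM factors, R 4.3.3) for genes with a mean count above 1 in the wells fitted, with Benjamini-Hochberg adjustment over all genes and a threshold of 0.05. Chemicals were fitted with population as a term over populations with 3 wells under both exposures, and populations were fitted under DMSO. The floor used for HSPB8 covers counting error in the GFP wells only, whereas the SD and SE values include the spread between wells. The test was also run on simulated data. Named members are up to 12 called per chemical and 6 per other comparison with the largest changes, plus HSPA1A, HSPA1B, HSPH1, DNAJB1, HSPB1, HSPA8, HSP90AA1, HSP90AB1, HSPD1, HSPE1, HSP90B1 and HSF1. Alternatives were edgeR's quasi-likelihood test, DESeq2 1.42.0, other scalings and filters, a replicate block, other sets of wells and leaving out each well. Gene positions are those of GENCODE on hg19 and promoter windows those of RefSeq on GRCh38.p14, with entries for 36 of 40 members. Figures were drawn with matplotlib 3.10.9.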

Additional observations from a re-analysis of the deposited data

Results flagged for a closer look

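Under CSC, BAG3 had all HCRED wells below the DMSO wells, with a log2 difference of −0.56, and all NRF2 wells above them, with 0.49. BAG3 was not called under CSC, its wells overlapped in GFP cells, where the value was −0.76, and the interaction of chemical and population gave an adjusted p of 0.789 by limma-voom. Under NNK, HSPA1A, also not called, had NRF2 wells below DMSO, with −0.69, and GFP wells above it, with 1.17, and the adjusted interaction p was 0.8. Both genes were singled out after their values were seen. Wells above DMSO in 1 population and below it in another were found for 1 of 39 members under CSC and 1 of 39 under NNK, against 3.7% and 6.29% of all genes tested.

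The wells with 2-digit replicate numbers lay outside the comparisons. All such wells lay beyond the DMSO wells of their population in the called direction for 1 member in FGFR1, 1 in CDKN2A and 3 in NRG1 cells under CSC, 7 in HCRED and 7 in FGFR1 cells under BaP, and 4 in CDKN2A cells under NNK.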

How the results depend on the processing

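Over the alternative settings, 1508 of 1679 values of named members kept their side of the threshold, and 84 lost and 82 gained a call. A change of sign was counted only where at least 1 of the 2 fits called the member. There were 5 such changes, all against the other control, which was added after seeing the data. They were HSPB1 to 0.18, HSP90AB1 to −0.039 and HSP90B1 to 0.27 in NRG1 cells, and HSPA8 to −0.23 in FAT1 and −0.13 in CDKN2A cells. The cause was not tested. Counts of members called moved by more than 1.5 times as follows. Without the low-count filter they were 3 for CSC, 1 for FGFR1 and 1 for BaP against NNK. With DESeq2 they were 1 for FGFR1, 7 for GFP, 5 for FAT1 and 2 for BaP against NNK. One model of every group left 3 calls under CSC, 5 under BaP, 1 each in FGFR1 and NRG1 cells, 3 in PIK3CA cells, 4 in GFP cells and 2 between BaP and NNK. Adding the 2-digit wells, summed, gave 3 for CSC, 14 for CSC against BaP and 2 for BaP against NNK. The population contrasts were also fitted over the exposures with 3 wells in both populations. Only FAT1 against GFP had every exposure, and for NRG1 they were DMSO and NNK. These fits called 23 members in FAT1 cells, 19 in GFP, 14 in PIK3CA, 11 in NRF2, 5 in FGFR1 and 1 in NRG1 cells. The last rose to 10 without the NRG1 well under NNK that stood apart, a fit added later. The other control gave 12 calls in CDKN2A cells, 15 in PIK3CA, 14 in NRG1, 7 in FGFR1 and 18 in NRF2 cells. Library totals without TMM factors, also added later, gave 11 for NNK, 4 for FGFR1, 4 for NRG1, 11 for CSC against BaP and 17 for CSC against NNK. NNK without the NRG1 well that stood apart gave 12, and BaP against NNK gave 8.

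Leaving out each well in turn, the counts ranged from 3 to 5 for CSC (lowest without FAT1 replicate 2 under DMSO), 9 to 11 for BaP, 4 to 12 for NNK (12 without NRG1 replicate 2 under NNK), 3 to 5 for NRF2, 0 to 5 for FGFR1 (5 without FGFR1 replicate 3), 5 to 9 for NRG1, 6 to 7 for PIK3CA, 9 to 10 for GFP, 6 to 11 for FAT1 (lowest without GFP replicate 2), 15 to 24 for CDKN2A (20 with all wells, HSPB8 included), 4 to 7 for CSC against BaP, 6 to 8 for CSC against NNK and 0 to 8 for BaP against NNK (8 without NRG1 replicate 2 under NNK, 1 without NRF2 replicate 2 under BaP). For the interactions they were 0 to 0 for CSC, 0 to 1 for BaP (1 without NRG1 replicate 3 under BaP) and 0 to 0 for NNK. Of 3421 values of named members in these fits, 3276 kept their side, 106 lost a call and 39 gained one.

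Replicate numbers did not pair the wells, since deviations of same-numbered wells had correlations between −0.286 and 0.235 over 114 pairs, with a mean of 0.0189. With the replicate number as a block, 21 members were called in CDKN2A and 6 in NRF2 cells, no count moved by more than 1.5 times, and 4 named values gained a call. Levels of a few CPM, as for HSPB8 and DNAJB9, rest on few molecules, and depth limits what could be called there.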
